A study of Mus musculus with 18 samples.

Results

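The contacts described here are those between the immunoglobulin heavy chain locus (Igh) and 7 genes on other mouse chromosomes: Myc, Pvt1, Pim1, Pax5, Cd83, Bcl6 and Il4ra. They were measured by 4C-seq, a method that amplifies and sequences the DNA ligated to 1 chosen fragment, the bait, here placed in the Igh intronic enhancer Eμ on chromosome 12. A fragment end belonged to a gene when it lay in the gene body or within 250 kb of it on mm10. Myc and Pvt1 are neighbours and shared a region, so the 7 genes gave 6 regions out of 4971 regions laid over the chromosomes other than 12. These 6 regions held 926 of the 379733 fragment ends that any library listed off chromosome 12. The cells were mature splenic CD43-negative B cells, either wild type (WT) or labelled as Med1 mutant. Med1 is a subunit of Mediator, the complex that couples enhancers to RNA polymerase II. The labels do not give the mutant allele or what drives it. Both genotypes were sampled resting (day 0), after 2 days with LPS and IL4, and after 2 days with LPS alone (added to the series later), with 3 libraries in each of the 6 groups. In the first deposit WTKO stands in the titles of all WT libraries, and WT in the genotype field, which was followed. For replicate 2 of WT LPS+IL4 a label gives anti-CD40 where the others give LPS. The labels do not say that replicates came from separate animals, so the p-values measure the spread between these libraries. Since 4C-seq reads DNA, the cell type and the Med1 mutation could not be checked from marker levels.

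Activation-induced cytidine deaminase (AID) starts class switching and somatic hypermutation by deaminating cytosines in Igh, and in activated B cells it also acts on a set of other transcribed genes. Several of these are known partners of Igh in chromosome translocations. Myc is a growth-promoting transcription factor that Igh translocations place under Igh control, and Pvt1 is the long noncoding RNA gene downstream of it that also carries breakpoints. Pim1 is a serine/threonine kinase, Bcl6 the transcriptional repressor that directs the germinal centre programme, and Pax5 the transcription factor that maintains B-cell identity. Cd83 is a surface protein of activated B cells and dendritic cells, and Il4ra is the α chain of the IL4 receptor.

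The restriction enzyme DpnII, which cuts at GATC, sets where contacts can be read. Each listed end was an interval of 24 bases, and all 1691 listed ends that lay wholly inside a RefSeq promoter window on GRCm38.p6, with room for the neighbouring site, were next to a GATC. GATC occurred in 48.0% of the 32851 promoter windows of 300 bases (250 before the start and 50 after it). The RefSeq table held 6 windows for 4 of the 7 genes (2 each for Pim1 and Bcl6, 1 each for Pax5 and Il4ra). The 3 with a GATC are shown to make clear where in a member's promoter an end could be read; each is written 5′ to 3′ on the gene's strand with GATC in capitals.
Pax5: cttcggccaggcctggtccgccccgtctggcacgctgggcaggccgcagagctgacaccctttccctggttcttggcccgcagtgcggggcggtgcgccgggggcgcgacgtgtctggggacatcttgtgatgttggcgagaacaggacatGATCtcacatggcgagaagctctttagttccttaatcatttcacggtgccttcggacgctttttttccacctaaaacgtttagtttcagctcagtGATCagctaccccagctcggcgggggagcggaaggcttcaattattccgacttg
Bcl6: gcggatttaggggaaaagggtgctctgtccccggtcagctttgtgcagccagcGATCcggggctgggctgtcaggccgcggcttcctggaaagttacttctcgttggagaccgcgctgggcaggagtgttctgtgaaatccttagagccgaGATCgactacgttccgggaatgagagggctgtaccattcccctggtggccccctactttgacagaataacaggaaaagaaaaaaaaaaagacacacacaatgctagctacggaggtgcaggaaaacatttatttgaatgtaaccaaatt
Il4ra: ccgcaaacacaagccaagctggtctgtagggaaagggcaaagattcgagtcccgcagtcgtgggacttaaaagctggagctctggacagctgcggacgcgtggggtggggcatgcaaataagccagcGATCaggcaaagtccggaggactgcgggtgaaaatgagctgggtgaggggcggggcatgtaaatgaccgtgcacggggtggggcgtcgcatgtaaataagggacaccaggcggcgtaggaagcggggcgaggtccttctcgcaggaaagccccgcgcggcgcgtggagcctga
The Pax5 window lies on chromosome 4 at 44710645 to 44710944 (minus strand) and the Il4ra window on chromosome 7 at 125552021 to 125552320 (plus strand). No library listed an end inside either of them. The Bcl6 window lies on chromosome 16 at 23981234 to 23981533 (minus strand), inside the gene body. One end was listed there, bases 58 to 81 of the printed run, next to the first GATC, with 86 reads in WT LPS+IL4 replicate 3 and in no other library. The motif AGCT, a preferred AID target, was counted on the printed strand, and since it is its own reverse complement the count holds for both strands. It occurred 5 times in the Pax5 window, 5 times in the Il4ra window and 2 times in each Bcl6 window, was not found in the Pim1 windows, and was present in 77.6% of all promoter windows. GTAC, the site of the second enzyme Csp6I, was present in 35.8% of them. A match of these letters is a description of the sequence and not a site of AID action.

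Depth in the first deposit ran from 2470497 to 21074434 reads over its 12 libraries, of which 1146195 to 9312401 lay off chromosome 12. Mutant LPS+IL4 replicate 2 was the deepest. The share of reads off chromosome 12 was 50.2% to 52.2% in the resting libraries and 40.9% to 44.2% in the LPS+IL4 libraries. Off chromosome 12 these libraries covered 38403 to 95879 ends and the 6 LPS libraries, whose files carry no counts, covered 39284 to 54472. Of all listed ends off chromosome 12, 64.2% were found in a single library. Among the 153 pairs of libraries, 4 shared more than 2000 ends found in just those 2 libraries, against 82 to 1350 ends (median 210.0) in the other 149 pairs. WT resting replicate 1 and WT LPS+IL4 replicate 3 shared 3204 such ends. In the LPS deposit, WT replicate 3 and mutant replicate 2 shared 6975, WT replicate 1 and mutant replicate 3 shared 4613, and WT replicate 1 and mutant replicate 1 shared 2322. Each pair joins libraries of different groups, so several of the results that rest on them are also given without them. Of the 17114 ends so shared, 45 lay in the member regions.

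Coverage of the members was sparse. Over the 18 libraries 206 ends were listed around Pim1, 174 around Pax5, 174 around Il4ra, 152 around Myc and Pvt1, 139 around Cd83 and 81 around Bcl6. Between 70.9% and 84% of a member's ends were found in 1 library only, and each region held 1 or 2 ends covered in at least 10 of the 18 libraries. Reads piled up on single ends. The most-read end of a library took a median of 28% of the region's reads for Pim1 and 49.9% for Bcl6, and up to 95.6% in 1 library for Bcl6. For this reason 2 measures are given, the number of different covered ends per 10000 covered ends off chromosome 12 and the reads per 1000000 reads off chromosome 12 (RPM).

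Pim1 had the most covered ends per Mb of the members. Averaged over the 12 libraries of the first deposit and divided by region size, it had 8.86 ± 2.71 covered ends per 10000 per Mb (SD, n = 12), at percentile 97.6 of the 4854 regions with a listed end. Il4ra followed with 6.29 ± 1.56, Cd83 with 5.99 ± 2.55, Pax5 with 5.62 ± 2.1, Myc and Pvt1 with 4.02 ± 1.38 and Bcl6 with 3.30 ± 1.05. The median of all regions was 3.75. Among the other AID targets and B-cell genes the range was from 2.55 at Pou2af1 to 10.5 at Cd79b, and among the genes not expressed in B cells from 1.26 at Krt5 to 7.84 at Cryaa. Neighbours in this order were separated by less than the spread of their paired difference: Pim1 exceeded Il4ra in 8 of 12 libraries, and Il4ra exceeded Cd83 in 6 of 12. Pax5 exceeded Myc and Pvt1 in 10 of 12 libraries, with a mean difference of 1.60 ± 2.09 (SD). In the LPS libraries the order was different, with Pim1 again first at 4.85 ± 1.51 (SD, n = 6, percentile 70.5) and Cd83 last at 2.01 ± 0.884 (percentile 16.3). Fitted across regions of the first deposit with limma and Benjamini-Hochberg adjustment, the level per Mb was higher than the genome-wide level for Pim1, Il4ra, Cd83 and Pax5. For Pim1 it was log2 1.15 ± 0.10 SE (adjusted p = 1.63e-08), and 42.3% of the regions tested were higher. In the LPS libraries no member tested was called higher (Pim1 0.35 ± 0.15 SE, limma, adjusted p = 0.0716). Bcl6 was lower there (-0.67 ± 0.12 SE, limma, adjusted p = 0.000677). The first-deposit level pools resting and activated cells. In WT, Cd83 was at percentile 96.7 resting and 60.1 after LPS+IL4, Pax5 at 82.5 and 52.6, and Il4ra at 66.5 and 85.2. Divided in the first deposit by the number of listed ends in place of the size, 5 of the 6 regions, all but Bcl6, were lower than the genome-wide level. For Il4ra this was log2 -0.42 ± 0.09 SE (limma, adjusted p = 0.00126), and 16.2% of the regions tested were lower. A listed end is one covered in at least 1 of the 18 libraries, so this denominator comes from the same coverage. The value per listed end therefore reflects how often a region's ends recurred between libraries. It is not a second measure of contact level, and the order of the members differed on it. Per listed end, a library covered on average 10.6% of the Cd83 ends, 10.5% of those of Pax5 and 10.4% of those of Pim1. On reads Il4ra stood above Pim1 in 3 of the 4 groups, with means of 471 ± 332 RPM in WT resting cells, 1141 ± 241 after LPS+IL4, 882 ± 128 in the resting mutant and 827 ± 432 after LPS+IL4 (SD, n = 3). Pim1 had 1002 ± 315, 540 ± 190, 849 ± 444 and 334 ± 147 RPM in the same order. The members had a median of 261 listed ends per Mb against 140.0 over all regions.

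Cd83 lost covered ends on activation. Resting WT libraries gave 4.02, 5.76 and 4.44 covered ends per 10000 and WT LPS+IL4 libraries gave 2.68, 1.66 and 2.27. Every activated value lay below every resting one, as in 7.85% of the regions tested. The same held in the mutant, with 4.43, 3.32 and 3.0 resting and 1.73, 1.67 and 2.23 after LPS+IL4; there 7.95% of the regions tested separated in this way. The log2 change was -1.05 ± 0.24 (SE) in WT (limma with Benjamini-Hochberg adjustment over 4203 regions, adjusted p = 0.00913) and -0.89 ± 0.24 in the mutant (adjusted p = 0.0254). These shares rest on 19 to 25 ends in each resting WT library and 8 to 15 in each activated one. In LPS cultures Cd83 was lower still, 0.633, 0.764 and 1.84 in WT and 0.979, 1.31 and 0.725 in the mutant, from 3 to 10 ends a library. The LPS libraries belong to another deposit with another aligner, so that difference cannot be told apart from the deposit. The WT call was lost when WT resting replicate 2 (adjusted p = 0.120), WT resting replicate 3 (0.0558) or WT LPS+IL4 replicate 2 (0.107) was left out, and with 100 kb in place of 250 kb (0.177). WT LPS+IL4 replicate 2 is the library whose label gives anti-CD40 in place of LPS. In the mutant the call ended on leaving out resting replicate 1 (0.165), LPS+IL4 replicate 1 (0.0884) or LPS+IL4 replicate 2 (0.132). It also ended with edgeR on covered ends (0.128), with libraries thinned to equal reads (0.0889) and with 100 kb (0.168). Without the pair of WT libraries that share ends, the WT change was -1.19 (limma, adjusted p = 0.0216).

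Pax5 fell in the mutant. Resting mutant libraries gave 4.17, 6.14 and 6.26 covered ends per 10000 and mutant LPS+IL4 libraries 2.72, 2.92 and 3.45. The activated values were all lower, as in 7.95% of the regions tested. The log2 change was -0.83 ± 0.24 (limma, adjusted p = 0.0337). In WT the resting values were 4.65, 5.30 and 2.62 and the activated ones 2.86, 1.87 and 3.31. Those groups overlapped through resting replicate 3, and the change of -0.59 ± 0.24 did not pass the test (limma, adjusted p = 0.273). The difference between the genotypes' changes was -0.24 ± 0.33 (limma, adjusted p = 0.987), so no difference in response was shown. That mutant result no longer passed after removal of resting replicate 2 (adjusted p = 0.159) or 3 (0.168), or of LPS+IL4 replicate 1 (0.143) or 2 (0.132), or with edgeR on covered ends (-0.87, adjusted p = 0.0592). LPS cultures gave 2.53, 3.05 and 1.84 in WT and 2.69, 2.39 and 2.18 in the mutant.

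Pim1 values were also lower after activation in WT, without passing the test. Resting WT libraries gave 6.35, 4.84 and 4.84 covered ends per 10000 and activated ones 2.50, 3.12 and 4.13. All activated values lay below the resting ones, as in 7.85% of the regions tested. The change was -0.70 ± 0.22 (limma, adjusted p = 0.0762). The call depended on the setting. It passed when each library was thinned to 1146195 reads (-0.85, adjusted p = 0.0184), when ends shared by the 4 pairs of libraries were left out (-0.76, adjusted p = 0.0437) and without WT LPS+IL4 replicate 3 (-0.88, adjusted p = 0.0396). It was further from the threshold with 100 kb (-0.38, adjusted p = 0.768), without WT LPS+IL4 replicate 1 (-0.54, adjusted p = 0.468), without WT resting replicate 1 (-0.58, adjusted p = 0.295), with edgeR (adjusted p = 0.207) and without the pair of WT libraries that share ends (adjusted p = 0.156). In the mutant the resting values of 6.77, 5.88 and 4.00 overlapped the activated ones of 2.96, 3.44 and 4.87, with a change of -0.56 ± 0.22 (limma, adjusted p = 0.190).

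The other 3 regions gave no call in either genotype. Around Myc and Pvt1, the WT groups overlapped, at 1.84 to 4.24 resting and 1.97 to 3.33 activated, with a change of -0.04 ± 0.26 (limma, adjusted p = 0.980). In the mutant the activated values of 2.96, 2.19 and 2.64 lay below the resting ones of 3.39, 5.62 and 3.75. This separation was found in 7.95% of the regions tested, and the change was -0.68 ± 0.26 (limma, adjusted p = 0.179). Bcl6 rested on 4 to 11 ends in each of these libraries, with a change of 0.26 ± 0.33 in WT and -0.67 ± 0.33 in the mutant (limma, adjusted p = 0.888 and 0.377). Its activated mutant values also all lay below the resting ones. Il4ra, whose ligand was in these cultures, was the member with higher estimates in both genotypes. Resting WT values were 1.90, 2.99 and 2.42 and activated ones 2.68, 4.16 and 2.89, which overlapped (0.37 ± 0.23, limma, adjusted p = 0.634). In the mutant 3.91, 2.56 and 4.00 stood against 3.95, 4.28 and 4.06 (0.22 ± 0.23, limma, adjusted p = 0.795). Cultures with LPS and no IL4 gave 2.74, 2.04 and 2.02 in WT and 1.71, 1.52 and 2.42 in the mutant, again from the other deposit.

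**Figure D1:**
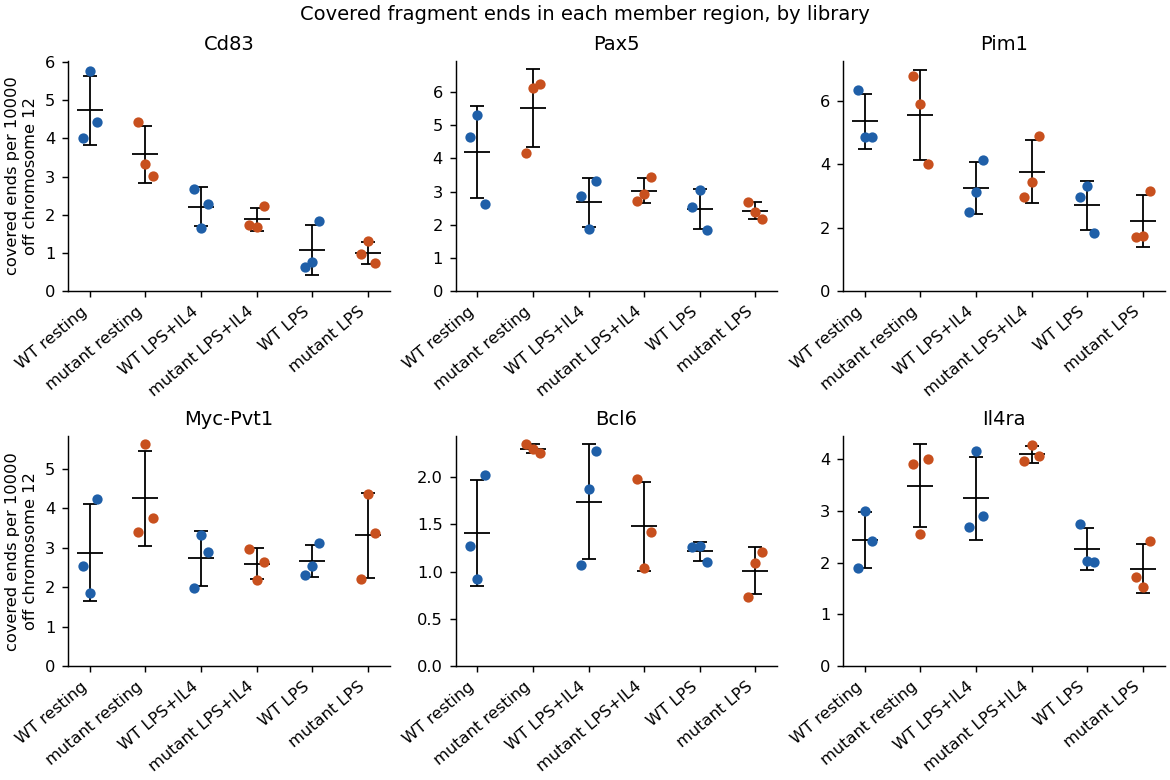
Covered fragment ends per 10000 covered ends off chromosome 12 (y axis, from 0) in each library, by group (x axis), for the 6 regions; blue points are WT, orange points Med1 mutant, and bars the mean ± SD of 3 libraries. The Cd83 libraries after LPS+IL4 lie below every resting library of their genotype, while the Il4ra groups overlap.

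In WT, 1 of the 6 members was called, and lower; over all regions 69 of 4203 were called (1.64%), 62 of them lower (1.48%). In the mutant 2 of the 6 were called, both lower; over all regions 136 of 4203 were called (3.24%), 122 of them lower (2.9%). The members' median log2 change was -0.31 in WT and -0.67 in the mutant, against medians of 0.03 and -0.00 over all regions tested. The 2 genotypes' comparisons use separate libraries, but share the same fit and its estimate of the spread, so their p-values are not independent. The gene lists, which were chosen with earlier results of these data known, give the setting. Among 25 other AID targets and B-cell genes, 5 regions fell in WT and 7 in the mutant and none rose, with 23 and 22 of 25 estimates below 0 and medians of -0.45 and -0.55. Ms4a1, which encodes the B-cell surface protein CD20, had the largest fall of that list in WT (-1.26 ± 0.18, limma, adjusted p = 9.67e-06) and a fall of -1.07 ± 0.18 in the mutant (adjusted p = 4.70e-05). The others that fell in WT were Bach2, Rhoh, Junb and S1pr2, named after their values were seen; Rhoh and Junb also fell in the mutant. Among the 21 genes not expressed in B cells, 19 were tested and none was called, with medians of -0.01 and 0.02. Of the 500 kb bins with at least 10 coding genes, 6.93% fell in WT and 12.9% in the mutant, against 0.108% and 0.594% of those with 1 to 4. Pim1 has 12 coding genes in its region and Il4ra 7, while Cd83, Pax5 and Bcl6 have 3 each and the region of Myc and Pvt1 has Myc alone. Median coding genes per Mb were 5.76 in the members and 19.6 in the other AID targets and B-cell genes. In the genes not expressed in B cells the median was 15.8. The part of gene density in the members' changes was not tested.

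**Figure D2:**
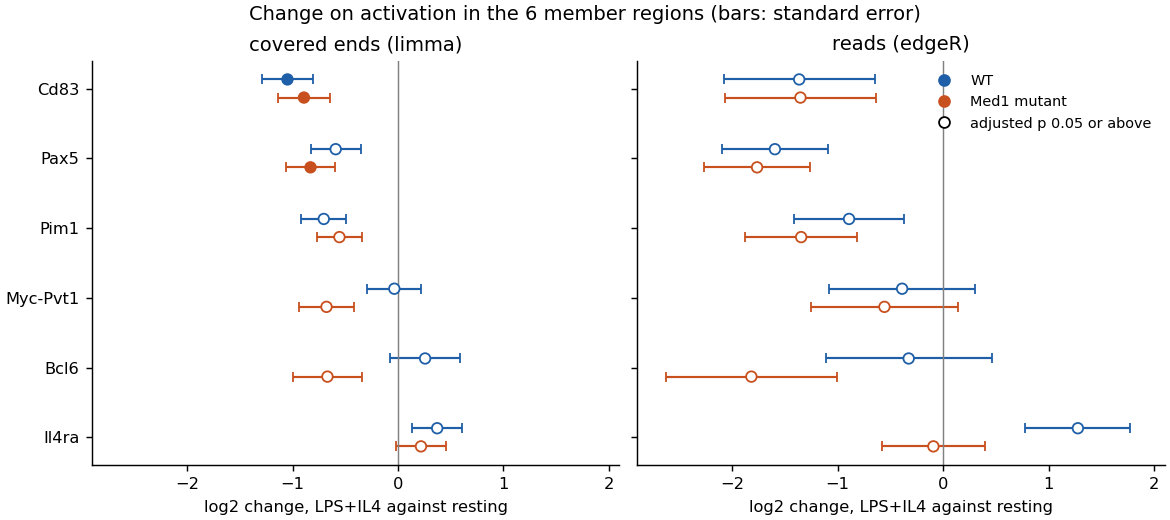
Log2 change of LPS+IL4 against resting cells (x axis) in each member region (y axis), on covered ends (left, limma) and on reads (right, edgeR); points are estimates from 3 libraries a group, bars the standard error, and filled points have an adjusted p under 0.05. Filled points are Cd83 in both genotypes and Pax5 in the mutant, on covered ends.

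**Figure D3:**
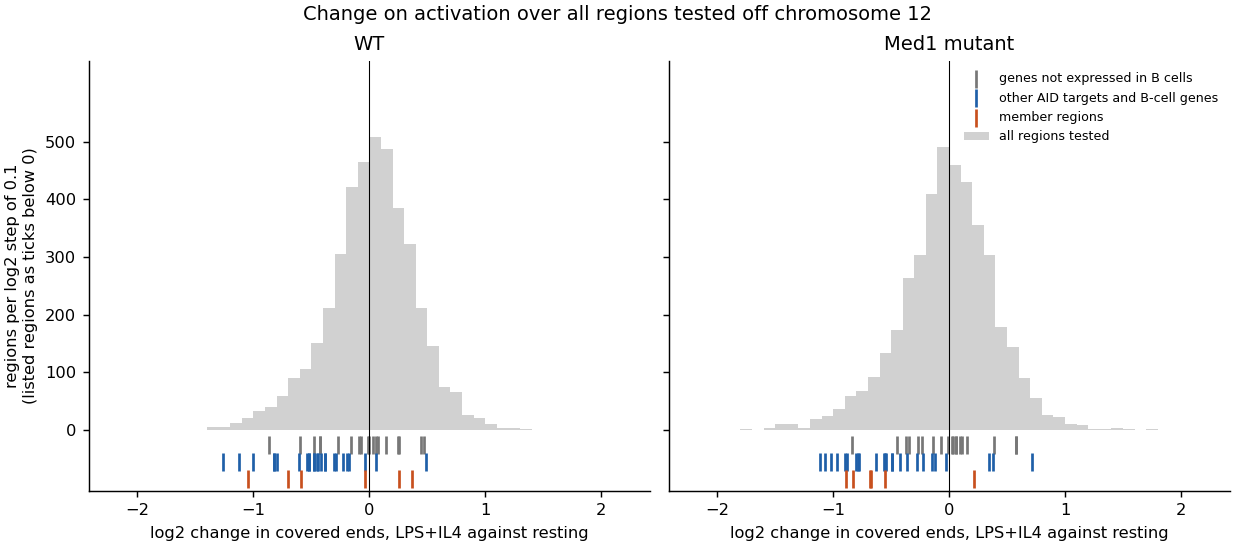
Log2 change in covered ends on activation (x axis) for all 4203 regions tested, as a histogram with steps of 0.1 (y axis, number of regions), in WT and in the Med1 mutant. Ticks below 0 mark the 6 members (orange), 25 other AID targets and B-cell genes (blue) and 19 tested genes not expressed in B cells (grey), whose medians were -0.31, -0.45 and -0.01 in WT.

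On reads no member was called in any comparison. In data simulated for WT activation, the edgeR fit of reads called 0 of 100 regions changed by log2 2. An absence of read calls there therefore says little about changes of that size. For activation, edgeR with Benjamini-Hochberg adjustment called 2 of 4844 regions in each genotype (0.0413%), with 456 in WT and 447 in the mutant at an unadjusted p under 0.05, and DESeq2 called 104 and 115. The 4 regions called by edgeR were bins of 500 kb on chromosome 17 (from 35000001 in WT and 34500001 in the mutant) and chromosome 19 (from 5000001 and 3500001), all lower and none near Pim1. The median region shifted by 0.23 in WT and 0.21 in the mutant. Pax5 had the strongest decline of the members in WT. Its resting WT libraries held 862, 1738 and 558 RPM and its activated ones 255, 486 and 304, all lower, as in 6.05% of the regions tested, a log2 change of -1.60 ± 0.50 (edgeR, adjusted p = 0.382). The mutant gave 912, 779 and 1156 resting against 165, 406 and 266, also without overlap, as 5.41% of the regions were in that direction (-1.77 ± 0.51, edgeR, adjusted p = 0.334). DESeq2 called Pax5 in both, at -1.86 (adjusted p = 0.0365) and -2.08 (adjusted p = 0.0144). Il4ra went the other way in WT, from 225, 338 and 848 RPM to 862, 1268 and 1292, all higher, as in 10.3% of the regions tested (1.28 ± 0.50, edgeR, adjusted p = 0.469). In the mutant its values were 805, 811 and 1030 resting and 434, 1289 and 757 activated, which overlapped (-0.09 ± 0.49). The genotypes' changes at Il4ra differed by -1.37 ± 0.70, which did not pass the test (edgeR, adjusted p = 0.886). Without the pair of WT libraries that share ends, the WT change at Il4ra was 0.84 (edgeR, adjusted p = 0.754). The difference between the genotypes was then -0.94 (edgeR, adjusted p = 0.945). Cd83 changed by -1.37 ± 0.72 in WT and -1.35 ± 0.72 in the mutant, in the direction of its covered ends (edgeR, adjusted p = 0.561 and 0.598). The mutant value was -0.66 without mutant resting replicate 3 and -0.86 without mutant LPS+IL4 replicate 1. Bcl6 had the largest estimate in the mutant, -1.82 ± 0.81, with 1 resting library at 619 RPM beside 165 and 232 (edgeR, adjusted p = 0.511).

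The most-read end around Il4ra held a minor part of the region's reads pooled over libraries, but a large part in 1 library. It lies on chromosome 7 at 125533581 to 125533604, in no annotated gene and 18.7 kb outside the Il4ra gene body. It was covered in 14 of the 18 libraries and in 8 of the 12 with counts, and carried 12.4% of the region's reads over those 12. That share pools raw reads and so weights most the deepest library, mutant LPS+IL4 replicate 2, with 12003 reads in the region. The end took 52.4% of the region's 848 RPM in WT resting replicate 3. Its mean was 89.9 RPM in resting libraries, most of it from that replicate, and 203 in LPS+IL4 libraries. The whole region had means of 471 RPM in WT and 882 in the mutant at rest, and 1141 and 827 after LPS+IL4. The most-read end around Pax5 lies on chromosome 4 at 44903423 to 44903446, within Zcchc7 and 193 kb from the Pax5 body. It was covered in all 18 libraries, with means of 44.8 resting and 25.7 activated. The most-read ends of the Cd83 region (chromosome 13, 43957851 to 43957874), of the Bcl6 region (chromosome 16, 24147764 to 24147787) and of the region of Myc and Pvt1 (chromosome 15, 62370997 to 62371020) each came from 1 library, at 386, 366 and 386 reads. That of Pim1 (chromosome 17, 29363487 to 29363510, in Fgd2) came from 4 libraries.

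**Figure D4:**
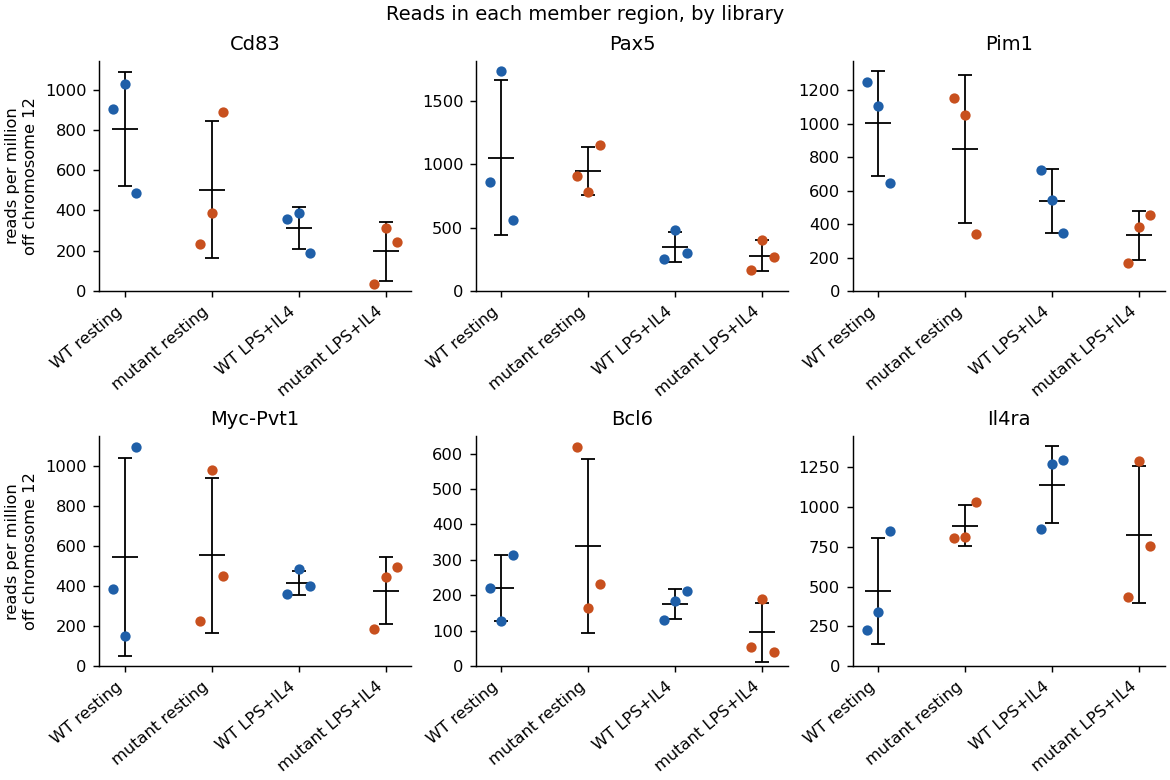
Reads per 1000000 reads off chromosome 12 (RPM, y axis, from 0) in each library of the first deposit, by group (x axis), for the 6 regions; blue points are WT, orange points Med1 mutant, and bars the mean ± SD of 3 libraries. Pax5 libraries after LPS+IL4 lie below the resting ones in both genotypes, and the spread within most groups is wide.

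Coverage by distance from the gene differed between the members. Within 100 kb of the Il4ra body, outside it, WT libraries had 6.87 ± 3.60 covered ends per 10000 per Mb resting and 10.7 ± 3.91 after LPS+IL4, and mutant libraries 10.2 ± 0.202 and 12.3 ± 0.856 (SD, n = 3). Between 100 and 250 kb the values were 2.57, 2.61, 3.68 and 4.46 in the same order, and between 250 kb and 1 Mb they were 4.72, 3.89, 4.99 and 4.69. Averaged over resting libraries, the fullest window of 100 kb in the Il4ra span began 800 kb from the gene's middle, at 1.5 covered ends per 10000, against 0.999 and 0.950 in the windows either side of the middle. Around Cd83 the resting WT value fell from 10.8 ± 3.22 within 100 kb to 7.68 ± 1.58 at 100 to 250 kb and 4.22 ± 0.320 at 250 kb to 1 Mb, and the activated values were 5.20 ± 1.06, 3.43 ± 1.80 and 2.73 ± 0.929. In the mutant the outermost values around Cd83 were 3.80 ± 0.483 resting and 2.50 ± 0.199 activated. Of the 3 tested 500 kb bins within 1 Mb of Cd83, all had estimates below 0 in WT (median -0.63) and 2 in the mutant (median -0.06, highest 0.42), and none was called. Activated values were also the lower ones at 250 kb to 1 Mb from Pax5 (5.46 ± 0.295 resting and 3.11 ± 0.289 activated in WT, 6.13 ± 1.48 and 2.92 ± 0.427 in the mutant) and from Pim1 (7.16 ± 0.731 and 4.62 ± 0.484 in WT). Of the tested 500 kb bins within 1 Mb, all 3 near Pax5 and all 4 near Pim1 had estimates below 0 in both genotypes. In the mutant, 1 bin beside Pax5 (chromosome 4, 45000001 to 45500000) was called at -1.07 ± 0.28 (limma, adjusted p = 0.0203) and 1 beside Pim1 (chromosome 17, 28000001 to 28500000) at -0.98 ± 0.24 (adjusted p = 0.0136). None of these bins was called in WT (limma). The Cd83 body itself, 18 kb long, held 4 covered ends over the 3 resting WT libraries and 2 over the 3 activated ones. The Bcl6 body held 1 and 1, which is too few to compare.

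**Figure D5:**
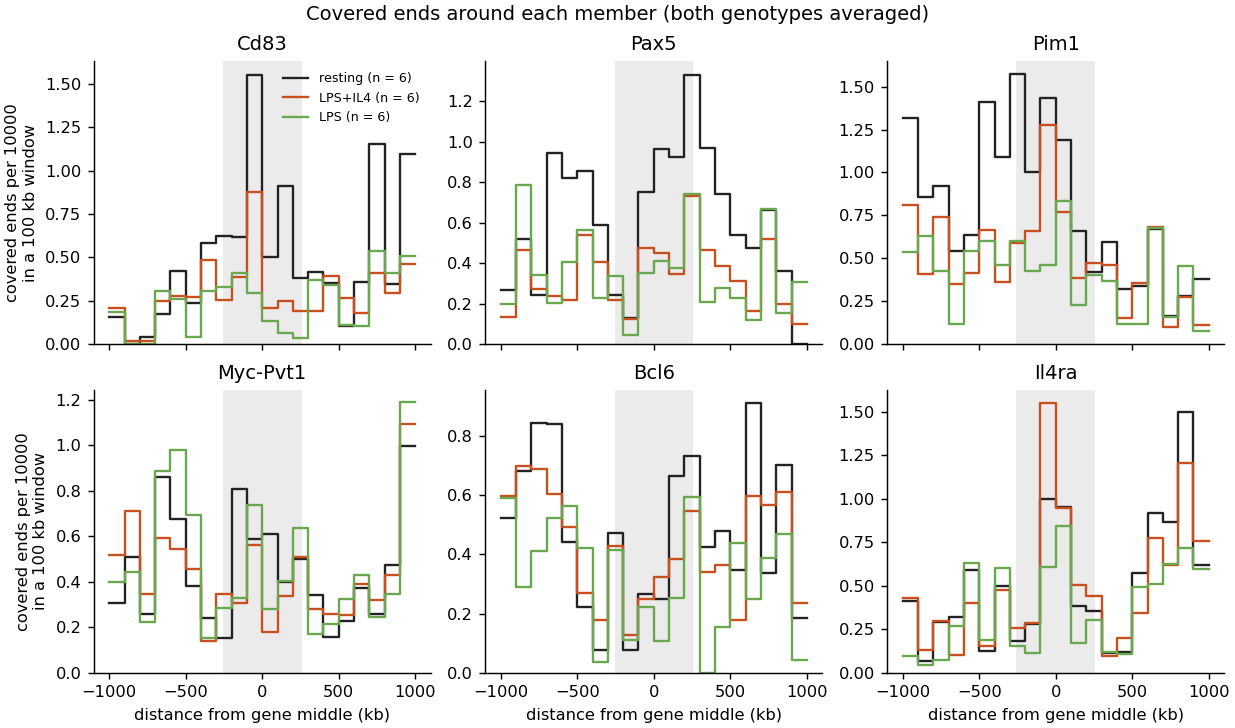
Mean covered ends per 10000 in windows of 100 kb (y axis) by distance from the gene middle up to 1 Mb either side (x axis, kb), over 6 libraries per condition with both genotypes averaged; the grey band marks 250 kb either side of the middle. Resting values (black) lie above those after LPS+IL4 (orange) over much of the span around Cd83, Pax5 and Pim1. The Il4ra window that ends at the gene middle is highest after LPS+IL4 (1.55 against 0.999 resting). The window that starts there is alike in both (0.947 and 0.950).

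Genotype made no called difference at any member. On covered ends limma called 0 of 4203 regions (0%) between mutant and WT in resting cells and 0 (0%) after LPS+IL4. At an unadjusted p under 0.05 there were 285 and 175 regions, and edgeR on covered ends also called 0. In resting cells the mutant estimate on covered ends was higher at 5 of the 6 members. Over all regions tested, 1985 of 4203 such estimates were lower. Bcl6 gave 2.34, 2.30 and 2.25 covered ends per 10000 in the mutant and 1.27, 0.921 and 2.02 in WT, without overlap, as in 5.50% of the regions tested (0.71 ± 0.33, limma, adjusted p = 0.699). The Myc and Pvt1 region differed by 0.59 ± 0.26 (limma, adjusted p = 0.680) and Il4ra by 0.49 ± 0.23 (limma, adjusted p = 0.701). Cd83 was the exception, at -0.37 ± 0.24 (limma, adjusted p = 0.825). After LPS+IL4 the estimates ran from -0.21 to 0.34. The read estimates had other directions at several members. At rest 3 of the 6 were higher, with a range from -0.68 ± 0.71 at Cd83 to 0.91 ± 0.49 at Il4ra. After LPS+IL4 all 6 were lower, from -0.14 ± 0.69 at Myc and Pvt1 to -0.87 ± 0.79 at Bcl6. Over all 4844 regions tested, 2368 read estimates were lower at rest and 2378 after LPS+IL4. On reads edgeR called 0 of 4844 regions in resting cells (0%) and 0 after LPS+IL4 (0%), with 345 and 184 at an unadjusted p under 0.05, and DESeq2 called 50 and 8, none of them a member. The difference of the activation changes between genotypes was also without a call, 0 of 4844 regions on reads (edgeR, 0%; 261 unadjusted; DESeq2 12) and 0 of 4203 on covered ends (limma, 0%; 189 unadjusted; edgeR 0). The largest such difference on covered ends among the members was -0.93 ± 0.47 at Bcl6 (limma, adjusted p = 0.987). All mutant libraries but replicate 2 after LPS+IL4 held fewer reads than any WT library, so depth moves with genotype.

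Among the LPS cultures 0 of 3926 regions were called between the genotypes (limma, 0%; 97 at an unadjusted p under 0.05; edgeR on covered ends 0). The estimates at the 5 members tested ran from -0.27 ± 0.28 at Pim1 to 0.26 ± 0.24 at Myc and Pvt1. Cd83 averaged under 5 covered ends a library and was not tested; its means were 1.08 ± 0.660 in WT and 1.0 ± 0.291 in the mutant (SD, n = 3). In these cultures 3 pairs of a WT and a mutant library share many ends found nowhere else, 33 of them in the member regions. Leaving those ends out gave estimates from -0.33 at Il4ra to 0.39 at Myc and Pvt1, and no call.

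Over the 12 libraries some members varied together in log2 share of covered ends and others did not. Bcl6 and the region of Myc and Pvt1 were the most alike pair (Pearson r 0.86), followed by Cd83 and Pim1 (0.69), Pax5 and Pim1 (0.62) and Cd83 and Pax5 (0.61). The least alike were Cd83 and Il4ra (-0.55). Among 46 other listed gene regions, the one most like Cd83 was Ms4a1 (0.93), the one most like Pim1 was Cd79a (0.81), which encodes the Igα chain of the B-cell receptor, and the one most like Pax5 was Junb (0.80). For Bcl6 it was Btg2 (0.61, below its value with Myc and Pvt1), for Myc and Pvt1 Cd79b (0.58) and for Il4ra Isl1 (0.54), a gene of the list not expressed in B cells. The last 6 values are each the best of 46, and all are over 12 libraries that share groups and depth, and describe these libraries only.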

How the data were processed

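Per the labels' protocols, cells were fixed in formaldehyde and 4C template was made with DpnII and Csp6I; the submitters' processing notes name mm10, with Bowtie for the first deposit and Bowtie2 for the LPS libraries. Per the file headers and values, the authors deposited raw read counts for the first 12 libraries, 1 for each interval of 24 bases beside a restriction site, listing only those with a read. The 6 deposited LPS files list covered ends without a count. Filters are not given in the sources used here.

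Gene positions came from the RefSeq table; all 46 listed genes matched. The members and gene lists were chosen with earlier results of these data known. Reads per region (mean at least 10) were fitted with edgeR 4.0.16 (quasi-likelihood, robust, library size the reads off chromosome 12, no TMM factors). Covered ends (mean at least 5) were fitted with limma 3.58.1 on log2 shares with a pseudocount of 1. Tests were two-sided over all 4971 regions (members, lists and 500 kb bins) that passed those minimums, with Benjamini-Hochberg adjustment and a threshold of 0.05. All 6 members passed in the first deposit and 5 in the LPS libraries. In data simulated for WT activation, edgeR on reads called 0 of 100 regions changed by log2 1 in either direction and 0 of 100 changed by log2 2. On covered ends limma called 31 and 87 of 100, and 6 of 4003 unchanged regions. DESeq2 1.42.0, R 4.3.3 and Python 3.11.15 were also used. The reads carry no molecular identifiers, so counts are of PCR products. Named items were all members, the extremes and most alike region of the lists, and the most-read ends; others are marked where given.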

Additional observations from a re-analysis of the deposited data

How the results depend on the processing

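Regions called on activation were few on reads and depended on the tool. In WT the 2 regions became 4 with TMM factors, 104 with DESeq2, 69 on covered ends and 105 on thinned covered ends, and 0 with reads capped, with only the groups compared, with the replicate block, without recurrent ends (covered in at least 10 of the 18 libraries) and without both libraries of the pair that shares ends. In the mutant the 2 regions became 115 with DESeq2, 136 on covered ends, 88 thinned and 1 with the replicate block. DESeq2 also called 50 regions between genotypes at rest, 8 after LPS+IL4 and 12 for the difference of changes. Of the members, reads called 0 in each genotype, DESeq2 1 in each (Pax5), covered ends 1 in WT and 2 in the mutant, and thinned covered ends 2 and 1. The Il4ra change in the mutant turned from -0.09 on reads to 0.22 on covered ends and 0.33 thinned.

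On covered ends, the 69 regions in WT became 42 with edgeR and 105 thinned, and the 136 in the mutant 54 and 88. The 1 WT member became 2 thinned, 2 without the ends of the 4 pairs and 0 with 100 kb. The 2 mutant members became 0 with edgeR, 1 thinned and 1 with 100 kb. Thinning turned the WT change at Myc and Pvt1 to 0.030 and the resting genotype difference at Pim1 to -0.059. Of the read estimates between genotypes, those at rest turned on covered ends at Pim1 (0.043) and Pax5 (0.43, thinned 0.24), with 100 kb at Pax5 (0.70), and at Myc and Pvt1 without recurrent ends (-0.0061) and without the shared pair (-0.17). Those after LPS+IL4 turned on covered ends at Pim1 (0.19), Pax5 (0.19) and Il4ra (0.34), on thinned covered ends at Myc and Pvt1 (0.036), Pim1 (0.30), Pax5 (0.091) and Il4ra (0.35), and with 100 kb at Myc and Pvt1 (0.41). Against the genome, the value was lower per listed end, a denominator that comes from the same coverage. The level per Mb in the first deposit was higher at Pim1 (1.15), Pax5 (0.48), Cd83 (0.56) and Il4ra (0.70). At Myc and Pvt1 it was 0.030, which did not pass the test (limma, adjusted p = 0.812). Per Mb without recurrent ends it was 1.55 at Pim1, 0.74 at Pax5, 0.93 at Cd83 and 0.98 at Il4ra. On that measure it was 0.32 at Myc and Pvt1 and 0.079 at Bcl6. For all of these the cause was not tested.

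Leaving out 1 library at a time gave 0 to 1 regions in WT and 1 to 2 in the mutant on reads. On covered ends it gave 18 to 75 and 71 to 110 regions, 0 to 2 members in each genotype, and 0 to 1 regions for the difference of changes. Ranges that crossed 0 included -0.57 to 0.21 for Il4ra in the mutant (reads). On covered ends they included -0.29 to 0.26 for Myc and Pvt1 in WT and -0.11 to 0.25 for Pim1 between resting genotypes. They also included -0.50 to 0.029 for Bcl6 between genotypes after LPS+IL4, and -0.46 to 0.053 for the Pax5 difference of changes. Over all alternatives, left-out libraries included, the activation change on reads at Myc and Pvt1 reached 0.63 in WT and 0.15 in the mutant. On covered ends the genotype difference after LPS+IL4 at Pim1 reached -0.0038. The differences of changes on covered ends reached -0.060 at Pim1 and 0.031 at Il4ra. For the read estimates between genotypes at rest the ranges that crossed 0 were -0.68 to 1.04 at Myc and Pvt1 and -0.52 to 0.14 at Pim1. At Pax5 the range was -0.45 to 0.42 and at Bcl6 -0.15 to 0.96. After LPS+IL4 it was -0.40 to 0.18 at Myc and Pvt1.

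Deviations of libraries with the same replicate number correlated between -0.134 and 0.0712. Coverage per region was sparse, so these values cannot tell whether the numbers pair the libraries. The replicate block changed no member call on covered ends. Alternatives on covered ends, recurrent ends, shared pairs and the per Mb level were chosen after seeing the data. Few ends a library, such as 4 to 11 at Bcl6, limit the precision of each share.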
